A study of Mus musculus with 12 samples.

Results

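The 46 genes described here are interferon-stimulated genes of the mouse, taken as a list by name: 27 antiviral effectors, 4 sensors of foreign nucleic acid, 3 interferon regulatory factors, 3 genes of the ISG15 conjugation system, and 9 guanylate-binding proteins (Gbp) and immunity-related GTPases (Irg). Every probe whose gene name in the scanner files was on the list was taken, with Rigi under its older name Ddx58. That gave 67 probes on 85 spots, out of 55681 probes on the array, and 46 of the 34751 genes that the array's names distinguish. The brightest probe stood for each gene: 27 of the 46 genes had 1 probe and 19 had 2 or 3.

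Messenger RNA was measured on 12 one-colour Agilent arrays, 3 in each of 4 groups. The kidney groups were CD11b+/CD11c+ cells sorted from mice of the B6C3Fe a/a-Csf1op/J strain, all given glyoxylate, an oxalate precursor that makes crystals form in the kidney, at 80 mg/kg for 6 days. The WT group carried a working Csf1 gene, and the op/op group was homozygous for the osteopetrotic mutation, which removes macrophage colony-stimulating factor (M-CSF), the main survival factor of macrophages. The other groups were macrophages grown from bone marrow: M1 cells were stimulated with LPS/GM-CSF and M2 cells with IL-4/M-CSF. The labels give no age and no mouse behind each sample, so the spread that p-values rest on may be technical. They do not say which genotype the marrow came from. There was no untreated kidney group, so glyoxylate was common to both kidney groups.

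Type I interferons are secreted when a cell detects viral or bacterial nucleic acid or lipopolysaccharide, and they act back on the same and on neighbouring cells. Their receptor signals through JAK kinases to a complex that holds STAT2 and IRF9 and binds the interferon-stimulated response element in front of target genes. Interferon gamma acts through its own receptor and the gamma-activated site. The targets block viral replication at many steps, and in macrophages lipopolysaccharide switches on the same programme through interferon beta.

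Both kinds of site were searched for in the promoters, because interferon signals act through them. Of the 46 genes, 34 matched by symbol a promoter window in RefSeq (GRCm38.p6), which runs from 250 bases before the transcription start to 50 bases after it. The letters GAAA, any 2 bases and GAAA again, the core of the interferon-stimulated response element, were found on either strand in 19 of these 34 genes (55.9%) and in 3.99% of the 27025 genes with a window. The letters TTCNNNGAA, those of the gamma-activated site, were found in 13 of the 34 (38.2%) against 9.55% of all genes. Both patterns stood in the windows of 7 of the 34 genes (20.6%), against 0.614% of all. Neither pattern stood in the windows of 9 of the 34 (26.5%), against 87.1% of all. Of the 7 Gbp and Irg GTPases with a window, 6 held the response element's letters, and of the 20 antiviral effectors, 10 did. A match records letters and not binding.

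The bases just upstream of the start are printed for 9 genes that held a match, each up to its start site. They show how the letters sit in front of genes whose kidney values follow. Capitals mark every match to either pattern, overlapping ones run together. Isg15 (chr4:156200819-156200938, minus strand), which encodes the ubiquitin-like protein ISG15, held 3 overlapping response elements that began at positions -78, -72 and -66. Ifit3 (chr19:34583359-34583528, plus strand), a binder of foreign RNA, held elements at -156 and -122. Rsad2 (chr12:26456453-26456582, minus strand), which encodes viperin, held 1 at -120, and Oas3 (chr5:120777660-120777759, minus strand), which makes the activator of RNase L, held 1 at -75. Irf1 (chr11:53769914-53770013, plus strand) had a gamma-activated site at -90 and no response element in its window.

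Isg15: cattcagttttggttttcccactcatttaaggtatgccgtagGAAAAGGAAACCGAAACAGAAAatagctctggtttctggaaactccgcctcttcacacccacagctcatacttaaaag
Ifit3: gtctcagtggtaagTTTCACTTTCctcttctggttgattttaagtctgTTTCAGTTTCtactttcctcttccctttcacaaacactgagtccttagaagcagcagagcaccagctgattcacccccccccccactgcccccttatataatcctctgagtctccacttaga
Rsad2: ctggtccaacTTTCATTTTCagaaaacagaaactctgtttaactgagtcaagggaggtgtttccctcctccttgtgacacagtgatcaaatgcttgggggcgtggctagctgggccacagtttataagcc
Oas3: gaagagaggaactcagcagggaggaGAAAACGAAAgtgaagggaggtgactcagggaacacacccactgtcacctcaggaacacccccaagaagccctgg
Irf1: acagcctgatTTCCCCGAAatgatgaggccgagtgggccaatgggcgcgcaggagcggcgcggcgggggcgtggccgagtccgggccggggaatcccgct

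Among the GTPases, Gbp3 (chr3:142559974-142560043, plus strand) held overlapping response elements at -45 and -39. Igtp (chr11:58199486-58199555, plus strand) and Tgtp1 (chr11:48992247-48992356, minus strand) each held a gamma-activated site followed closely by a response element, at -45 and -34 in Igtp and at -88 and -77 in Tgtp1. Gbp5 (chr3:142496684-142496933, plus strand) held a response element at -165 and gamma-activated sites at -245 and -52.

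Gbp3: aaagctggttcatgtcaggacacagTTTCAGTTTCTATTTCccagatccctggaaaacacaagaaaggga
Igtp: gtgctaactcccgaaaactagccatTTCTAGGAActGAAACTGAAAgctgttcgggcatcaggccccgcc
Tgtp1: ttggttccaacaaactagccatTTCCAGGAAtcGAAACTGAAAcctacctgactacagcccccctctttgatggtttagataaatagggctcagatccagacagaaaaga
Gbp5: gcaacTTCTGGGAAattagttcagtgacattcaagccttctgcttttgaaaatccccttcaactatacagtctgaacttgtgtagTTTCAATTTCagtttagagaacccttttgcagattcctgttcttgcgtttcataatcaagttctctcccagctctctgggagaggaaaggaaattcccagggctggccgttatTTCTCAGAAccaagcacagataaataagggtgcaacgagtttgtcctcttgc

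Levels are given as log2 of the background-subtracted signal minus the 75th percentile of the array, so 0 is the level of a probe at that percentile, and a difference of 1 is 2-fold. The scanner software called a probe well above background or not, and the share of probes above was 76.1% to 79.3% on the WT arrays, 63.1% to 68.8% on the op/op arrays, 72.6% to 75.1% in M1 and 64.4% to 65.1% in M2. All 46 genes were well above background on every WT and every M1 array, 42 on every M2 array and 37 on every op/op array. WT replicate 1 was alone on its slide, the other 5 kidney arrays shared another slide and the 6 marrow arrays 1 more. Kidney and marrow arrays were therefore on different slides, and tissue and slide cannot be told apart. Csf1, the gene mutated in op/op, was at a mean of -0.11 in WT and -0.52 in op/op (difference -0.42, adjusted p = 0.244 by limma). The op mutation is an insertion in the coding sequence, so this level does not check the labels. Of the genes for the antigens used in the sort, Itgam (CD11b) was at 7.72 and 8.03 (difference 0.31, adjusted p = 0.383), and Itgax (CD11c) was lower in op/op, at 1.76 and 0.15 (difference -1.62, adjusted p = 0.0115). The spread within a group was larger in the kidney: the median SD of a gene was 0.367 in the kidney groups and 0.161 in the marrow groups.

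**Figure D1:**
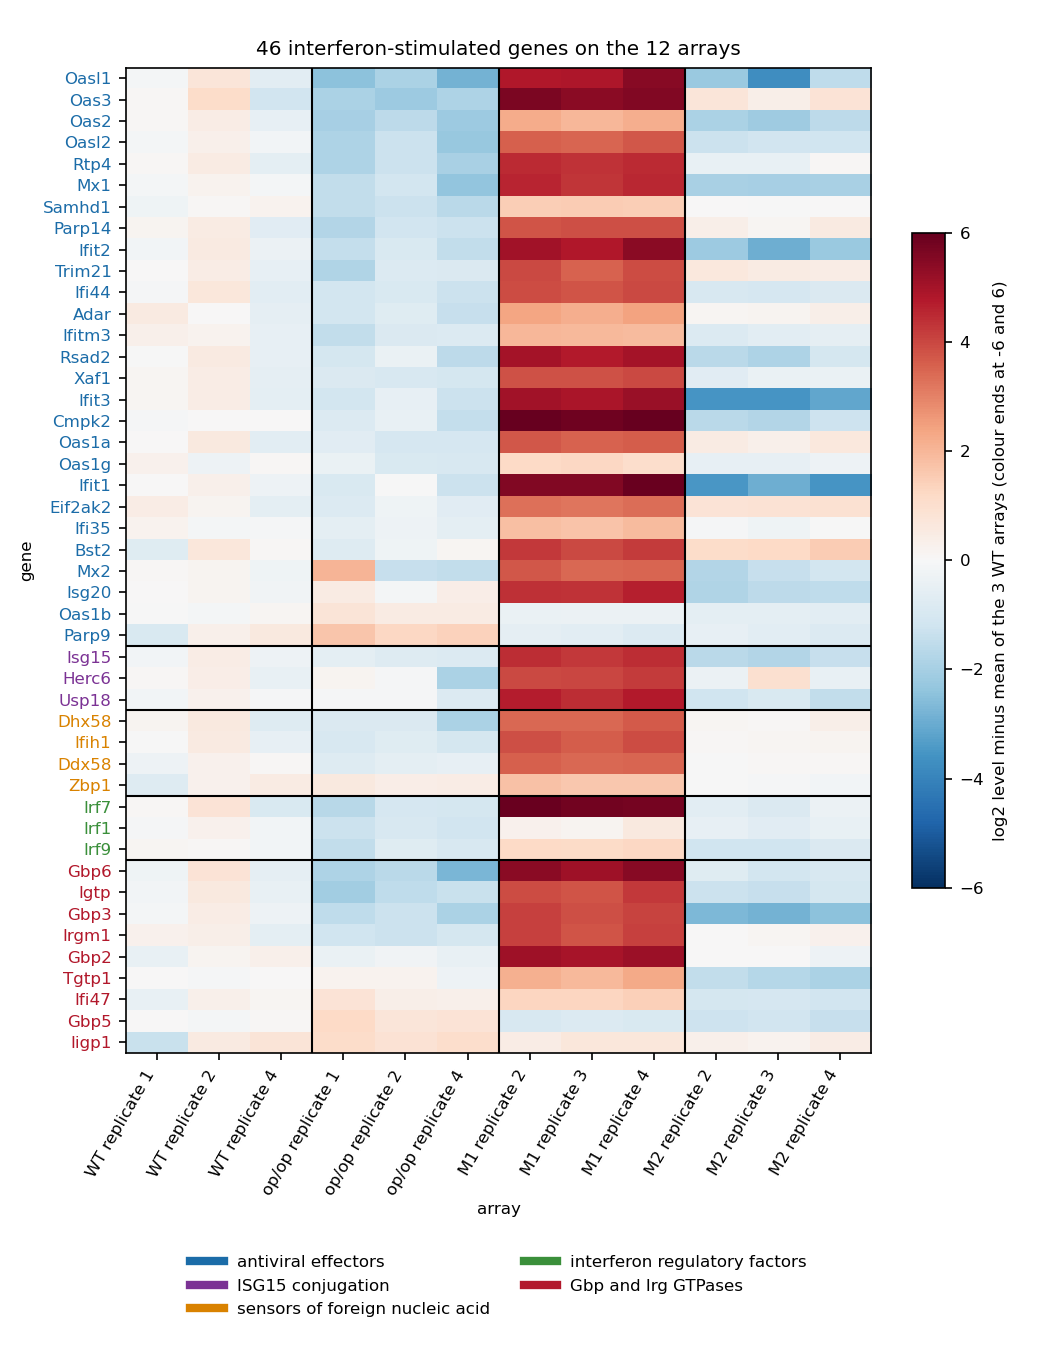
Heat map of the 46 genes (rows, coloured by role) on the 12 arrays (columns): each cell is the log2 level minus the mean of the 3 WT arrays, blue for lower and red for higher. Most rows are blue in op/op and dark red in M1, while Parp9, Oas1b, Gbp5 and Iigp1 at the ends of their blocks are higher in op/op than in M1.

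In the op/op kidney cells, about as many of the 46 genes were lower than in WT as were not, and few were higher. Tested with limma and Benjamini-Hochberg adjustment over all 27062 genes, 24 of the 46 were lower in op/op at an adjusted p under 0.05 and 2 were higher, Gbp5 and Parp9. Among all genes tested, 18.4% were called lower and 19.1% higher. The median difference over the 46 genes was -0.96, and over all genes it was 0.16. Fewer cells of a type in the op/op sort and less RNA per cell cannot be told apart in bulk samples. All 46 genes passed the filter on dim probes through their WT arrays, and 37 passed on the op/op arrays too. With genes required to pass in both groups, 24 of these 37 were lower and 2 higher, and 10499 of all 22758 genes were called in either direction.

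The separation can be read from the 6 arrays directly. In 29 genes all op/op arrays lay below all WT arrays, and in 5 genes all lay above, while among all genes 58.8% were separated, 26.2% downwards and 32.6% upwards. Each op/op array showed the same direction: 36, 39 and 38 of the 46 genes were below the WT mean on op/op replicates 1, 2 and 4. The share of all genes below the WT mean was not counted array by array.

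How many genes passed the threshold depended on single arrays. Without op/op replicate 1, no gene of the 46 was called by limma, while 27 were lower and 2 higher at an unadjusted p under 0.05. Without WT replicate 2, 2 genes were called lower. Without op/op replicate 4 there were 9 lower, without op/op replicate 2 there were 15 lower, and without WT replicate 4 there were 28 lower and 3 higher. Without WT replicate 1, which leaves the arrays of 1 slide, 11 were lower and 2 higher, and with the slide as a term in the fit 15 were lower and 2 higher. Calls over all genes moved in the same way, from 37.5% with 6 arrays to 1.82% without op/op replicate 1 and 1.97% without WT replicate 2. They were 8.45% without op/op replicate 4, 15.4% without op/op replicate 2, 47.2% without WT replicate 4 and 16.7% without WT replicate 1. With the slide as a term, 5257 of all 27062 genes were called. The size of the difference moved less: the median over the 46 genes lay between -1.22 and -0.76 with any 1 array left out, and 36 to 39 of the 46 differences were below 0. Background handling moved it more: after normexp background correction of all 6 arrays the median was -0.52, against 0.20 over all genes. It was then -0.66 in the antiviral effectors and -0.11 in the GTPases. Of the 46 genes 19 were lower and 3 higher, and 11409 of all 27062 genes were called.

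**Figure D2:**
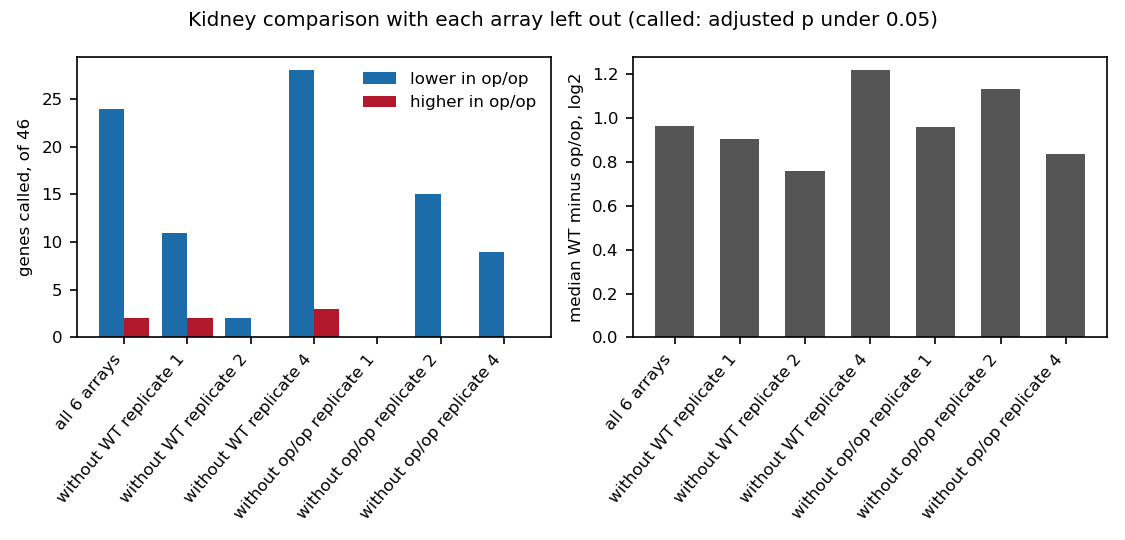
Left, number of the 46 genes called lower or higher in op/op with all 6 kidney arrays and with each array left out. Right, the median of WT minus op/op over the 46 genes in log2: it lies between 0.76 and 1.22 in every case, while the number called lower ranges from 0 to 28.

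Of the 27 antiviral effectors 15 were lower and 1 was higher in op/op, with a median difference of -1.01. Oasl1, an oligoadenylate synthetase-like protein that restrains IRF7, had levels of -2.59, -1.70 and -3.06 on WT replicates 1, 2 and 4 and -4.89, -4.33 and -5.30 on op/op replicates 1, 2 and 4. No op/op array had it well above background. Its fall is therefore a bound, at least 1.8-fold, the WT mean being set against the lowest signal well above background where the op/op signal lay below that. Its measured difference was -2.39 ± 0.39 (adjusted p = 0.0112), the value after ± being the standard error here and below.

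The oligoadenylate synthetases make the messenger that switches on RNase L, which degrades RNA in infected cells. Oas2 stood at 0.45, 0.83 and -0.13 in WT and -1.59, -1.18 and -1.81 in op/op, a difference of -1.91 ± 0.31 (adjusted p = 0.0112). Oasl2, the other oligoadenylate synthetase-like gene, stood at -0.71, -0.28 and -0.75 in WT and -2.45, -1.87 and -2.87 in op/op, a difference of -1.82 ± 0.31 (adjusted p = 0.0119). Oas3 ranged widely in WT, at 0.26, 1.28 and -0.95, and stood at -1.68, -2.005 and -1.67 in op/op, a difference of -1.98 ± 0.48 (adjusted p = 0.0231). In these 3 genes the lowest WT array was above the highest op/op array.

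Oas1a and Oas1g are near-identical neighbours of these genes on chromosome 5. Their groups did not overlap either, but neither passed: Oas1a differed by -0.88 ± 0.34 (adjusted p = 0.0605) and Oas1g by -0.76 ± 0.28 (adjusted p = 0.0551). A second probe of each, which RefSeq accessions assign to both genes, gave -1.60 and -1.81, adjusted p = 0.016 and 0.0109 over all probes, so the signal of the 2 genes cannot be separated there. Oas1b, which is truncated in many laboratory strains, had 3 probes, which were higher in op/op without passing: the brightest differed by 0.58 ± 0.24 (adjusted p = 0.074) between op/op and WT.

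Samhd1, which depletes the nucleotides a virus needs to copy DNA, had the smallest standard error of the antiviral effectors called lower. Its levels were 1.75, 2.07 and 2.20 in WT and 0.52, 0.71 and 0.40 in op/op, a difference of -1.46 ± 0.25 (adjusted p = 0.0118), and its other 2 probes gave -1.73 and -1.94. Rtp4, a chaperone of membrane receptors with antiviral activity, differed by -1.69 ± 0.34 (adjusted p = 0.0163), and Parp14, an ADP-ribosyltransferase, by -1.39 ± 0.34 (adjusted p = 0.0231). Mx1, a dynamin-like GTPase that blocks influenza virus and is defective in many laboratory strains, stood at -0.18, 0.13 and -0.17 in WT and -1.56, -1.18 and -2.46 in op/op, a difference of -1.66 ± 0.34 (adjusted p = 0.0174).

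The IFIT proteins act against foreign RNA, and their 3 genes lie together on chromosome 19. Ifit2 was at -0.44, 0.26 and -0.62 in WT and -1.69, -1.16 and -1.74 in op/op, a difference of -1.26 ± 0.31 (adjusted p = 0.0233). Ifit3, whose promoter holds the paired elements printed above, was at 1.03, 1.37 and 0.34 in WT and -0.19, 0.44 and -0.40 in op/op, and its difference of -0.96 ± 0.34 (adjusted p = 0.0513) did not pass. Ifit1 differed by -0.74 ± 0.35 (adjusted p = 0.113) and was well above background on 1 of the 3 op/op arrays. The kidney groups overlapped for Ifit3 and Ifit1 and not for Ifit2.

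The remaining 6 lower effectors had differences nearer the threshold. They were Trim21, an antibody receptor inside the cell, at -1.17 ± 0.35 (adjusted p = 0.0345), Ifi44 at -1.11 ± 0.34 (adjusted p = 0.0363), and Adar, which edits adenosine in double-stranded RNA, at -1.08 ± 0.33 (adjusted p = 0.035). Ifitm3, which blocks viral fusion, differed by -1.05 ± 0.31 (adjusted p = 0.0329), Xaf1, a promoter of cell death, by -0.97 ± 0.30 (adjusted p = 0.0365), and Cmpk2, a mitochondrial nucleotide kinase, by -0.90 ± 0.30 (adjusted p = 0.0423). In none of the 6 did the kidney groups overlap. The other Adar probe gave 0.36 (adjusted p = 0.26 over all probes) and the other Xaf1 probe 0.48 (adjusted p = 0.201). With the mean of its probes neither gene was called, at -0.36 for Adar (adjusted p = 0.235) and -0.24 for Xaf1 (adjusted p = 0.471). Trim21 was well above background on none of the op/op arrays and gets no fold, since its bound came out under 1.

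Apart from Parp9, which was higher and is described with the probes, the other effectors did not pass. Rsad2 (viperin), which makes a chain-terminating nucleotide, was at 2.46, 3.02 and 1.98 in WT and 1.41, 2.08 and 0.93 in op/op, a difference of -1.01 ± 0.37 (adjusted p = 0.0551). Eif2ak2, the kinase PKR that stops translation, differed by -0.58 ± 0.32 (adjusted p = 0.16), Ifi35 by -0.500 ± 0.24 (adjusted p = 0.114), Bst2, the tether that holds budding virus, by -0.30 ± 0.38 (adjusted p = 0.513), and Isg20, an RNA exonuclease, by 0.27 ± 0.27 (adjusted p = 0.417). Mx2 had 1 array far from the others: its op/op levels were -0.91, -4.32 and -4.43 against -2.85, -2.78 and -3.19 in WT. On the arrays of op/op replicates 2 and 4 it lay below all WT arrays, and on op/op replicate 1 above them.

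**Figure D3:**
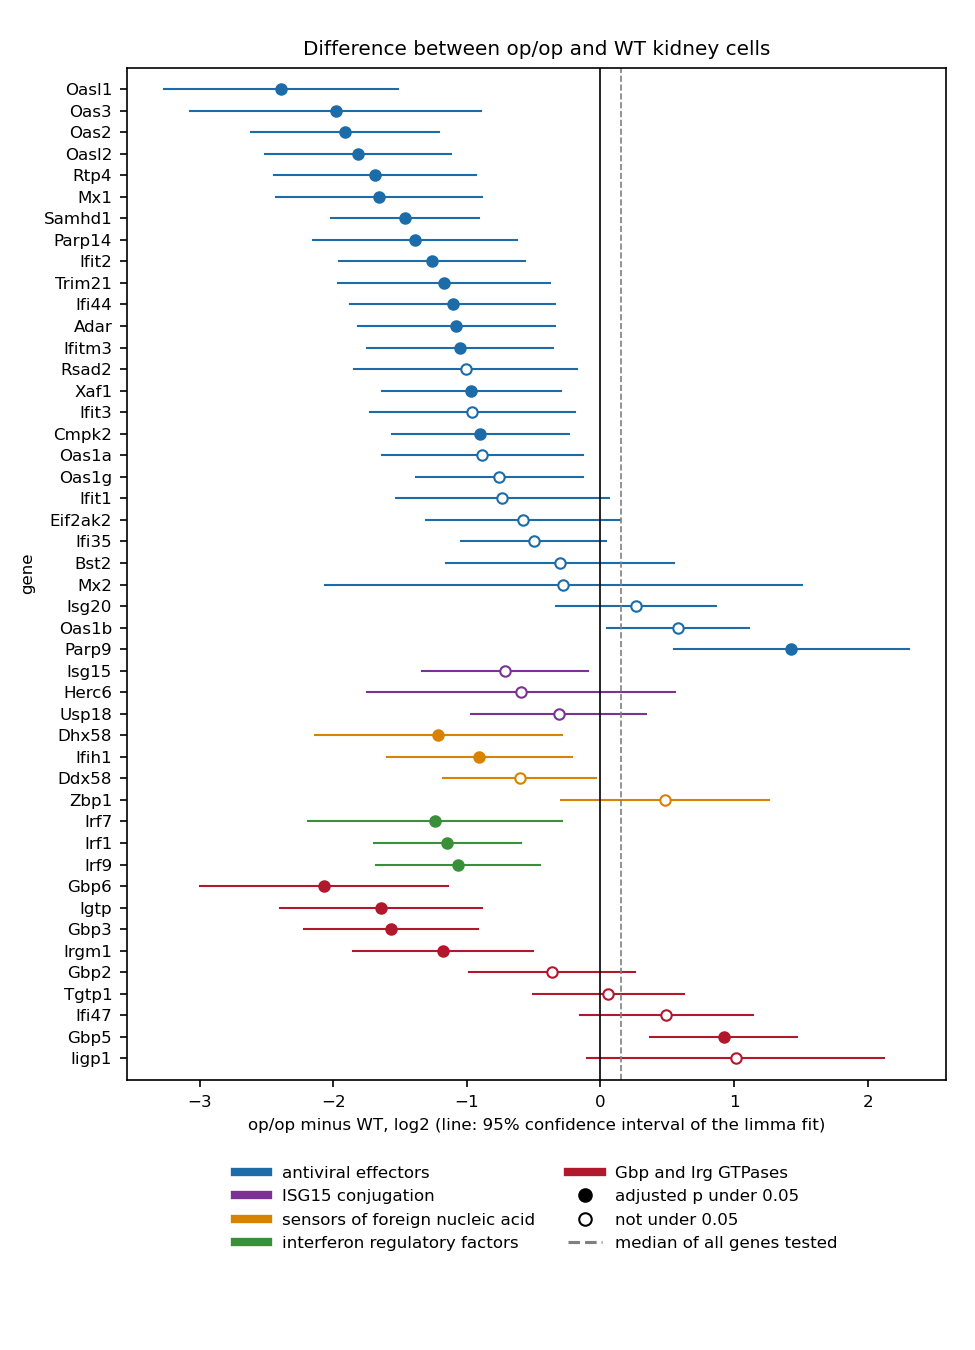
Difference between op/op and WT for each gene, in log2 (horizontal axis), with 95% confidence intervals from the limma fit; filled points passed an adjusted p of 0.05, and the dashed line is the median of all genes tested, 0.16. Filled points lie left of 0 in every role except ISG15 conjugation, which has none, and Parp9 and Gbp5 are the filled points on the right.

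The genes of the ISG15 system, which attaches the ubiquitin-like ISG15 to proteins during infection, did not pass in any of 3 cases by limma, and 1 of them, Isg15, was lower at an unadjusted p under 0.05. Isg15 itself was at 1.61, 2.24 and 1.495 in WT and 1.22, 1.01 and 0.97 in op/op. Its groups did not overlap, yet the difference of -0.71 ± 0.28 (adjusted p = 0.0635) missed the threshold. Its second probe gave -1.34 and passed (adjusted p = 0.0316 over all probes). Herc6, the mouse ligase for ISG15, was at -1.23, -0.91 and -1.72 in WT and -1.10, -1.34 and -3.20 in op/op, a difference of -0.60 ± 0.51 (adjusted p = 0.344). The low op/op value was that of replicate 4, and the groups overlapped. The other Herc6 probe gave -2.11 (adjusted p = 0.0271 over all probes). Usp18, which removes ISG15 and dampens the interferon receptor, was at -2.38, -1.97 and -2.27 in WT and -2.27, -2.26 and -3.03 in op/op, a difference of -0.31 ± 0.29 (adjusted p = 0.379) with overlapping groups. The 95% confidence intervals ran from -1.33 to -0.09 for Isg15, from -1.75 to 0.56 for Herc6 and from -0.97 to 0.34 for Usp18, and missing the threshold does not show equal levels.

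Of the 4 sensors of foreign nucleic acid, 2 were lower by their brightest probes. Dhx58 (LGP2), which modulates the other RNA sensors, was at -1.44, -1.003 and -2.35 in WT and -2.45, -2.48 and -3.495 in op/op, a difference of -1.21 ± 0.41 (adjusted p = 0.0451). Ifih1 (MDA5), the sensor of long double-stranded RNA, was at -1.38, -0.80 and -1.85 and -2.30, -2.07 and -2.40, a difference of -0.91 ± 0.31 (adjusted p = 0.0451). Neither gene's groups overlapped. Ddx58 (RIG-I), which recognises RNA with a free triphosphate, was at 0.15, 0.72 and 0.52 in WT and -0.30, -0.12 and -0.01 in op/op, a difference of -0.61 ± 0.26 (adjusted p = 0.0804) without overlap between the groups. Zbp1, a sensor of nucleic acid in the Z form, was at 2.21, 3.27 and 3.499 in WT and 3.58, 3.38 and 3.46 in op/op, a difference of 0.48 ± 0.35 (adjusted p = 0.261), and WT replicate 1 was the lowest of the 6 arrays. The other probes gave -0.18 for Ifih1 (adjusted p = 0.791 over all probes), -2.08 for Ddx58 (adjusted p = 0.0112) and -0.75 for Zbp1 (adjusted p = 0.0982). That Ddx58 probe was well above background on no op/op array. With the mean of a gene's probes Ifih1 was not called and Ddx58 was called lower.

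All 3 interferon regulatory factors were lower in op/op. Irf1, a target of interferon gamma that switches on further genes and carries the gamma-activated site printed above, was at 3.12, 3.46 and 3.07 in WT and 1.93, 2.24 and 2.05 in op/op, a difference of -1.15 ± 0.24 (adjusted p = 0.0186). Irf9, the DNA-binding partner of STAT2, was at 0.89, 0.85 and 0.62 and -0.71, 0.05 and -0.17, a difference of -1.07 ± 0.27 (adjusted p = 0.0252). Irf7, which amplifies interferon alpha, was at -0.43, 0.33 and -1.43 and -2.16, -1.53 and -1.55, a difference of -1.24 ± 0.42 (adjusted p = 0.0466). The groups did not overlap in any of the 3, although WT replicate 4 of Irf7 was close to op/op replicates 2 and 4.

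The Gbp and Irg GTPases, which coat and break the vacuoles of bacteria and parasites and depend strongly on interferon gamma, moved in both directions. Of 9 genes 4 were lower and 1 was higher, and the median was -0.36 by the brightest probes. Gbp3 was at -0.30, 0.26 and -0.45 in WT and -1.69, -1.45 and -2.05 in op/op, a difference of -1.57 ± 0.29 (adjusted p = 0.0142). Igtp (Irgm3), a regulator of the other Irg proteins, was at -0.0047, 0.74 and -0.28 and -1.93, -1.36 and -1.17, a difference of -1.64 ± 0.34 (adjusted p = 0.0173), and neither gene's groups overlapped. Irgm1, a regulator of the same kind, was at -0.90, -0.80 and -1.73 in WT and -2.35, -2.43 and -2.19 in op/op, a difference of -1.18 ± 0.30 (adjusted p = 0.0248). Gbp6 was at -2.54, -1.45 and -2.82 in WT and -4.12, -3.91 and -4.99 in op/op, a measured difference of -2.07 ± 0.41 (adjusted p = 0.0164). It was well above background on no op/op array, which makes the fall of this probe's signal at least 2.04-fold. The accessions of this probe name Gbp10 as well as Gbp6. The other probe, whose accessions name Gbp6 alone, gave -0.47 and did not pass (adjusted p = 0.202 over all probes). It was well above background on no op/op array either.

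Gbp5, which also promotes inflammasome assembly, was the GTPase that rose. It stood at 3.67, 3.54 and 3.71 in WT and 4.83, 4.38 and 4.47 in op/op, a difference of 0.92 ± 0.24 (adjusted p = 0.0268), with every op/op array above every WT array. It was no longer called without WT replicate 2 or without any 1 of the op/op arrays. Gbp2 differed by -0.36 ± 0.28 (adjusted p = 0.288), Ifi47 by 0.49 ± 0.29 (adjusted p = 0.179), Tgtp1 by 0.06 ± 0.25 (adjusted p = 0.857) and Iigp1, which opens parasite vacuoles, by 1.01 ± 0.49 (adjusted p = 0.117). Iigp1 was at 2.65, 4.53 and 4.75 in WT, with replicate 1 far below the other two. No relation between the letters printed above and these differences was tested. After normexp background correction, 2 of the 9 GTPases were lower and 1 higher, and leaving out either WT replicate 2 or op/op replicate 1 left none of the 9 called. The difference between the GTPases and the antiviral effectors was not tested.

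Probes of the same gene did not always tell the same story. Of the 19 genes with 2 or 3 probes, 11 had all probes below 0 in op/op minus WT, 2 had all probes above 0 (Gbp5 and Oas1b), and 6 had probes on both sides (Adar, Iigp1, Isg20, Parp9, Xaf1 and Zbp1). The disagreement was greatest for Parp9, an ADP-ribosyltransferase that pairs with the ligase DTX3L. Its brightest probe, placed by the files at chr16:35968243-35968302 (mm9) and annotated with an Ensembl transcript, was at 1.01, 2.26 and 2.55 in WT and 3.61, 3.18 and 3.31 in op/op, a difference of 1.43 ± 0.39 (adjusted p = 0.0286). The other probe, at chr16:35972577-35972636 and annotated with the RefSeq transcript, gave -1.39 (adjusted p = 0.0173 over all probes). The RefSeq probe was 2.92 higher in M1 than in M2 and the other was 0.02 lower, so the 2 probes disagreed in the marrow cells too.

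Iigp1 showed the same split. Its brightest probe barely separated M1 from M2 (0.27), while the other was 7.55 higher in M1 and gave -1.14 in op/op minus WT (adjusted p = 0.0648 over all probes). Runs of 16 letters of the brightest Iigp1 probe occur in the promoter windows of 10 other genes, and those of the brightest Oas1b probe in 80. Among all probes on the array, 2.62% share such a run with 5 or more windows. Gbp5 behaved otherwise, since both of its probes were higher in op/op: the second gave 1.68 and separated M1 from M2 by 2.08. For Ddx58, Herc6, Oas1a, Oas1g and Isg15 the dimmer probe gave the larger fall, and for Gbp6, Ifih1 and Irf1 the smaller one. What the brightest probes of Parp9, Iigp1 and Oas1b detect was not tested.

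With the brightest probe that carries a RefSeq accession and few shared runs standing for each gene, a rule added after these values were seen, 25 of the 46 genes were lower in op/op and 1 was higher. Over all genes, 10155 of 27017 were then called in either direction. Under this rule the antiviral effectors had 16 lower and none higher, where the brightest probe gave 15 and 1, and Parp9 was among the lower genes at -1.39 (adjusted p = 0.0163). The GTPases had 4 lower and 1 higher under both rules. Their median moved from -0.36 by the brightest probes to -1.14, beside -1.05 in the antiviral effectors under this rule.

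**Figure D4:**
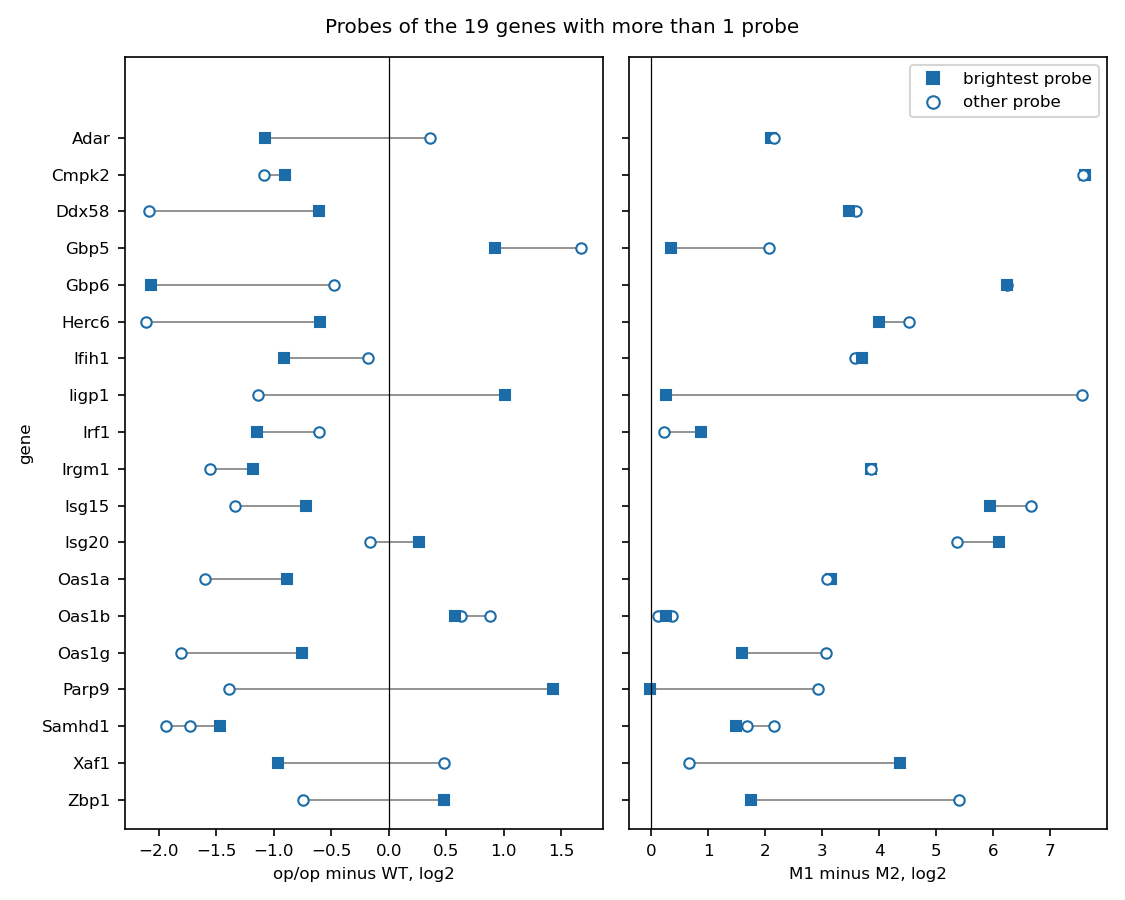
Every probe of the 19 genes with more than 1 probe: op/op minus WT on the left, M1 minus M2 on the right, both in log2. Squares mark the brightest probe. Parp9 and Iigp1 have a square above 0 and a circle below -1 on the left, and on the right a square near 0 beside a circle at 2.92 and 7.55.

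The marrow cells show how far these genes can move. Between M1 and M2, 44 of the 46 genes were higher in M1 and none was lower by limma, at an unadjusted p under 0.05 either, where 17.5% of the 26174 genes tested were called higher and 19.5% lower. The median difference was 3.93, against 3.6e-05 over all genes. In 45 of the 46 genes all M1 arrays were above all M2 arrays, which held for 24.7% of all genes, and 51.3% were separated in either direction (26.6% downwards). The median was 4.37 in the antiviral effectors, 5.83 in the ISG15 genes, 3.40 in the sensors, 2.28 in the regulatory factors and 3.86 in the GTPases.

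The IFIT genes were among those that differed most. Ifit1 was at 2.89, 2.92 and 3.30 on the M1 arrays and at -6.15, -5.58 and -6.20 on the M2 arrays, where it was not well above background. M1 was at least 122-fold higher, and the difference from the signal below background was 9.02 ± 0.20 (adjusted p = 1.86e-06). Ifit3 was at 5.94, 5.80 and 6.07 in M1 and -2.63, -2.61 and -2.19 in M2, a difference of 8.42 ± 0.15 (adjusted p = 1.34e-06). Cmpk2 was at 6.09, 5.89 and 6.43 and -1.56, -1.71 and -1.16, a difference of 7.61 ± 0.19 (adjusted p = 2.51e-06). The 3 replicates of each marrow group lay within 1 of each other in these genes. Oasl1 and Mx2, also not well above background in M2, were at least 89.5-fold and at least 22.8-fold higher in M1. Isg15 rose to 6.21, 6.02 and 6.20 in M1 from 0.16, 0.01 and 0.42 in M2, a difference of 5.95 ± 0.13 (adjusted p = 1.75e-06). The GTPases with the largest differences were Gbp3 at 6.67 ± 0.13 (adjusted p = 1.46e-06) and Gbp6 at 6.24 ± 0.15 (adjusted p = 2.32e-06).

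At the other end were 5 genes that differed by less than 1. Irf1 was 0.88 higher in M1 (adjusted p = 0.00265), Gbp5 0.36 (adjusted p = 0.0298) and Oas1b 0.26 (adjusted p = 0.0372). Iigp1 at 0.27 ± 0.10 (adjusted p = 0.0869) and Parp9 at -0.02 ± 0.12 (adjusted p = 0.934), both by their brightest probes, were the 2 genes that did not pass. Parp9 was at 1.42, 1.29 and 1.13 in M1 and 1.43, 1.33 and 1.12 in M2, and its groups overlapped. With the RefSeq probes all 46 genes were higher in M1, and 9818 of all 26106 genes were called in either direction.

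The kidney and marrow comparisons share no sample and could be set side by side. Of the 24 genes lower in op/op, all 24 were higher in M1 than in M2. Since 44 of all 46 genes were, this count could hardly have come out otherwise. Of the 44 genes higher in M1, 19 did not pass in the kidney and 1, Gbp5, was higher in op/op. Across the 46 genes the larger the M1 minus M2 difference, the lower the op/op minus WT difference (Pearson's r = -0.52, Spearman's rho = -0.43, over genes, which are not independent and share the array's probes). With the RefSeq probe rule the values were r = -0.366 and rho = -0.315. The 5 genes with an M1 minus M2 difference under 1 were Parp9, Iigp1, Gbp5, Oas1b and Irf1, and in the first 4 op/op was above WT by the brightest probe. Of the other 41 genes, 37 were below 0 in op/op minus WT, with a median of -1.01. With the RefSeq probe rule, Oas1b and Irf1 were the 2 genes under 1, and 39 of the other 44 were below 0, with a median of -1.03.

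**Figure D5:**
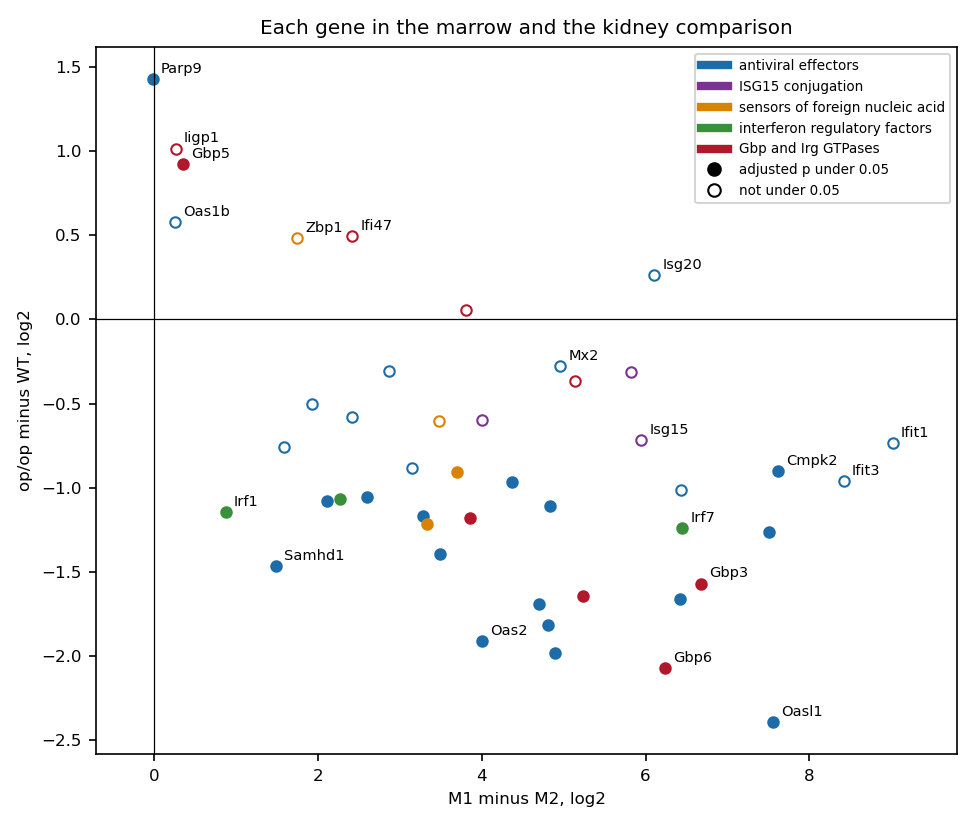
Each point is 1 of the 46 genes, M1 minus M2 on the horizontal axis and op/op minus WT on the vertical axis, both in log2, coloured by role and filled where the kidney difference passed. Most points lie to the right and below 0; Parp9, Iigp1, Gbp5 and Oas1b stand at the upper left, all by their brightest probes, and Ifit1 (below background in M2) and Ifit3 lie farthest right without having passed in the kidney.

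Set against the polarized marrow cells, WT kidney cells had far lower levels than M1 and, for 22 genes, higher levels than M2. This comparison and the next use the WT arrays that the op/op comparison also uses, so the 3 are not independent. Against M1, 41 of 46 genes were lower in WT and 1, Gbp5, was higher, where 23.5% of 27957 genes were called lower and 30.5% higher (54% in all). All WT arrays lay below all M1 arrays in 41 of the 46 genes and above in 2, against 28.9% and 36.1% of all genes (64.9% in either direction). The median was -3.82, against 0.20 over all genes. The largest differences were Cmpk2 at -6.07 ± 0.21 (adjusted p = 6.00e-06) and Irf7 at -5.83 ± 0.40 (adjusted p = 5.26e-05). Irf1 was the regulatory factor that did not pass, at -0.34 ± 0.21 (adjusted p = 0.209). WT kidney cells had levels of 3.12, 3.46 and 3.07 and M1 cells 3.48, 3.39 and 3.79, and the groups overlapped. Iigp1, Parp9 and Oas1b were the others that did not pass. Gbp5 was 0.91 ± 0.18 higher in WT by its brightest probe (adjusted p = 0.0038), and with the RefSeq probe it was lower in WT, at -1.74 (adjusted p = 0.0216).

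Against M2, 22 genes were higher in WT and 2 lower, where 32.4% of 27153 genes were called higher and 26.1% lower (58.5% in all). All WT arrays lay above all M2 arrays in 24 genes and below in 2, against 37.5% and 31.3% of all genes (68.7% in either direction). The median was 0.63, against 0.20 over all genes. Ifit3 stood highest over M2, by 3.39 ± 0.29 (adjusted p = 0.00021), among the genes well above background in both groups. Ifit1, below background in M2, was at least 2.38-fold higher in WT. Gbp3 was 2.66 higher (adjusted p = 0.000241) and Ifit2 2.44 (adjusted p = 0.000824). The 2 genes lower in WT were Eif2ak2, at -0.86 ± 0.28 (adjusted p = 0.0305), and Bst2, at -1.27 ± 0.35 (adjusted p = 0.017). By role, 13 of 27 antiviral effectors, 5 of 9 GTPases, 2 of 3 ISG15 genes and 2 of 3 regulatory factors were higher in WT. None of the 4 sensors passed limma's test in either direction, at an unadjusted p under 0.05 either, with differences from -0.19 to 0.09 by the brightest probes. The other Zbp1 probe was 1.33 higher in WT (adjusted p = 0.0101 over all probes), and Zbp1 was also called higher with the mean of its probes (0.71, adjusted p = 0.0449) and without WT replicate 1 (0.49, adjusted p = 0.0303). Ddx58 was at 0.46 ± 0.29 in WT and 0.51 ± 0.06 in M2 (mean ± SD, n = 3).

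Over the 4 groups, M1 had the highest mean for 42 of the 46 genes and op/op for the other 4, Parp9, Oas1b, Gbp5 and Iigp1, by the brightest probes. By the other probe M1 was highest for Parp9 (3.17 against -1.28 in op/op), for Iigp1 (1.87 and -3.69) and, by little, for Gbp5 (1.72 and 1.66), while all 3 Oas1b probes were highest in op/op. The lowest mean was in op/op for 26 genes and in M2 for 18. Oas2 is an example of a gene lowest in op/op, with means of 2.52 ± 0.13 in M1, 0.39 ± 0.48 in WT, -1.48 ± 0.27 in M2 and -1.52 ± 0.32 in op/op (SD, n = 3 each). Its op/op and M2 levels overlapped. Oas3 had the same bottom rank for op/op with M2 above WT, at 0.82 ± 0.26 and 0.20 ± 1.12, a difference that did not pass. Rsad2 stood at 7.41 ± 0.13 in M1, 2.48 ± 0.52 in WT, 1.47 ± 0.58 in op/op and 0.97 ± 0.42 in M2.

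None of the interferon genes tested was lower in op/op by limma, nor at an unadjusted p under 0.05. Of 19 interferon genes looked for, 15 were on the array and 11 were tested in the kidney comparison: 3 were higher in op/op, where 19.1% of all genes were. Ifna1, an interferon alpha, differed by 1.26 ± 0.28 (adjusted p = 0.02), Ifna13 by 1.10 ± 0.29 (adjusted p = 0.0275) and Ifnl3, a lambda interferon, by 0.84 ± 0.25 (adjusted p = 0.0326). Ifna5 missed the threshold at 0.83 ± 0.29 (adjusted p = 0.0502). The interferon alpha genes are near-identical copies, so which of them the probes measured is uncertain. Ifnb1, the interferon beta gene that lipopolysaccharide induces, was at 0.68, 0.27 and -0.58 in WT, -0.96, 0.03 and -1.92 in op/op, -1.35, -1.49 and -0.08 in M1 and -5.94, -5.996 and -5.24 in M2. It was not well above background in M2, and its kidney groups overlapped, at a difference of -1.07 ± 0.49 (adjusted p = 0.101). Ifng, interferon gamma, differed by 0.09 ± 0.67 (adjusted p = 0.92) between the kidney groups.

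The receptor and its signalling chain were lower in op/op in 9 of 16 genes and higher in none, with a median of -1.07. Over all genes tested 18.4% were lower and 19.1% higher, with a median of 0.16. Ifnar2, a chain of the type I receptor, was at 2.47, 2.30 and 1.34 in WT and 0.37, 0.501 and 0.68 in op/op, a difference of -1.52 ± 0.33 (adjusted p = 0.0188). Ifngr1, the binding chain of the interferon gamma receptor, was at 2.31, 2.18 and 2.04 in WT and 0.82, 1.06 and 0.91 in op/op, a difference of -1.25 ± 0.23 (adjusted p = 0.0148). Neither gene's groups overlapped. Ptpn6, the phosphatase SHP-1 that damps JAK signalling, differed by -1.73 ± 0.32 (adjusted p = 0.0145), and Stat2 by -1.18 ± 0.26 (adjusted p = 0.0196).

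Among 17 genes of the pathways that sense nucleic acid or lipopolysaccharide and induce interferon, 16 were tested. In op/op 9 were lower and 1, Tlr7, was higher, against 18.4% and 19.1% of all genes. Sting1, the adaptor of cytosolic DNA sensing, differed by -1.32 ± 0.25 (adjusted p = 0.0152), Ticam2, an adaptor of Tlr4, by -2.13 ± 0.45 (adjusted p = 0.0185), Irf5 by -1.41 ± 0.30 (adjusted p = 0.0186) and Irf4 by -1.60 ± 0.37 (adjusted p = 0.0215). Tlr7, the endosomal sensor of single-stranded RNA, was 1.37 higher (adjusted p = 0.0355).

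Interferon-stimulated genes outside the 46 were also more often lower than higher. Of 42 further genes, 40 were tested in the kidney cells. In op/op 16 were lower and 3 higher, with a median of -0.62, against 18.4% and 19.1% of all genes. Between M1 and M2 36 of 42 were higher and 1 lower, against 17.5% and 19.5% of all genes. Cxcl10, a chemokine induced by interferon gamma, was at 0.37, 0.87 and -0.71 in WT and -2.84, -2.49 and -3.55 in op/op, a difference of -3.14 ± 0.43 (adjusted p = 0.00758) without overlap. Tor3a differed by -1.91 ± 0.30 (adjusted p = 0.0108), Ifi27l2a by -1.90 ± 0.34 (adjusted p = 0.0129) and Parp12 by -1.84 ± 0.33 (adjusted p = 0.013). Of 14 further Gbp and Irg genes, 12 were on the array and 11 tested, with 4 lower and 3 higher in op/op. These counts are read against the same 18.4% and 19.1% of all genes. Gvin1 differed by -1.18 ± 0.29 (adjusted p = 0.0237), Gbp7 by -1.49 ± 0.38 (adjusted p = 0.0248) and Irgm2 by -1.16 ± 0.34 (adjusted p = 0.0327), while Gbp9 was 0.83 higher (adjusted p = 0.0325). All 11 tested were higher in M1 than in M2, where 17.5% of all genes were.

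Single arrays were left out for the 46 genes and not for these lists. Genes that mark cell types also moved between the kidney groups. Of 13 macrophage markers 10 were lower in op/op and none higher. Their summed signal, in units of the array's 75th percentile, was 105 to 230 on the WT arrays and 63.2 to 67.6 on the op/op arrays, and all 13 were well above background on every kidney array. Adgre1, which encodes the macrophage antigen F4/80, was at 2.26, 3.34 and 1.43 in WT and 0.07, 0.11 and 0.47 in op/op, and Csf1r, the receptor for M-CSF, differed by 0.08 ± 0.23 (adjusted p = 0.774). Cx3cr1, one of the macrophage markers, was not well above background on any M2 array. Proximal tubule markers were lower in 9 of 12 cases, with sums of 130 to 261 in WT and 27.3 to 77 in op/op, and Slc22a8 was the marker not detected in op/op.

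Of all genes tested 18.4% were lower and 19.1% higher, which the marker counts are read against. Some lymphocyte markers were higher. T cell markers were higher in 3 of 8 tested (sums of 16.6 to 48.5 in WT and 62.5 to 84.7 in op/op, with Cd3g well above background on no kidney array), and B cell markers in 4 of 8 (6.37 to 19.3 and 20.9 to 26.4). NK cell markers were higher in 2 of 4 tested (11.1 to 11.6 and 17.6 to 24.1, Klrk1 not detected in either group), and neutrophil markers in 3 of 10 (27 to 74 and 36 to 51.9). Plasmacytoid dendritic cells are a main source of interferon alpha: 1 of their 10 markers was higher and 1 lower (48 to 56 and 62.8 to 79.8). Monocyte markers were higher in 1 and lower in 2 of 6 (27.1 to 37.3 and 19.7 to 29.7), distal nephron markers higher in 3 of 8 (47.3 to 111 and 21.9 to 74.5, with a median difference of -0.14), endothelial markers higher in 1 of 9 (27.9 to 40 and 37.4 to 58.1), and fibroblast markers lower in 4 of 8 (12.3 to 20.7 and 8.68 to 12.9). The part of these cell types in the lower interferon-stimulated genes was not tested.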

How the data were processed

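RNA from the 12 samples was extracted with RNeasy Micro kits, amplified with Ovation PicoSL WTA V2 and labelled with Cy3, per the labels' protocols. The authors deposited 1 scanner file per array, made with Agilent Feature Extraction 10.7.3.1 per the file headers, and the processed signal intensity in it, background-subtracted by that software, was used. A deposited table of log2 values served as an alternative and correlated with these at 0.99999 or more. Saturated spots were not found; 30 probes were left out for outlier flags. Intensities were averaged over the spots of a probe, scaled to each array's 75th percentile and put on a log2 scale. The brightest probe stood for a gene, and a gene was tested if the scanner software called it well above background throughout 1 or both of the groups compared. Only those 2 groups entered each fit (limma 3.58.1, R 4.3.3; two-sided; Benjamini-Hochberg over all genes tested; threshold 0.05). The scripts were tested on simulated data. Precision is limited by the number of arrays.

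The members and lists were chosen with earlier results of these data known. Values on each array are given, within each role, for up to 4 genes with the smallest adjusted p in op/op minus WT, for genes called against the majority, and for the 3 with the largest M1 minus M2 change; of each pathway list up to 4 genes with the smallest p are named. Other genes (Ifnb1, Ifng, Tlr7, Csf1, Itgam, Itgax, Adgre1) were named after their values were seen. Probe positions are those of the files (mm9), promoters those of RefSeq (GRCm38.p6), and 59 of the 67 probes matched a RefSeq accession. Background correction, normalization, filters, probe rules, fits and single arrays were varied.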

Additional observations from a re-analysis of the deposited data

How the results depend on the processing

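In op/op minus WT, 26 of the 46 genes were called, 16 of them antiviral effectors and 5 GTPases. Leaving out 1 array gave 0 to 31 genes (0 to 19 effectors, 0 to 6 GTPases), with 1.82% to 47.2% of all genes called. With the slide as a term there were 17 (10 effectors) and over all genes 5257 calls in place of 10148; after normexp correction 3 GTPases were called. All 12 arrays in 1 fit gave 16180 calls over all genes and array weights 16859, with 34 and 35 of the 46 genes. Leaving out 1 array gave 42 to 43 genes in M1 minus M2, 42 to 43 in WT minus M1 and 19 to 27 in WT minus M2. Of all genes, 29.5% to 32.5%, 38.9% to 64.2% and 45.1% to 68.2% were then called in these 3 comparisons. The correlations of same-numbered deviations were -0.165, 0.0709 and -0.0628 in the kidney. With 3 arrays per group they cannot show whether the replicate numbers pair the samples. With the replicate block 18 of the 46 genes were called in the kidney (12 effectors, 4 GTPases), and 4281 of all genes. It gave 43 in M1 minus M2, 43 in WT minus M1 and 21 in WT minus M2. Over all genes the calls there were 9000 of 26174, 16864 of 27957 and 13593 of 27153. Counting sign changes in which the value was called before or after the change, 4 genes turned; values that were called neither before nor after, such as Mx2 and Zbp1 in the kidney, also changed sign. With the mean of a gene's probes Parp9 was 1.45 in M1 minus M2 and -1.20 in WT minus M1, Gbp5 was -0.41 in WT minus M1 and Iigp1 1.40 in WT minus M2. With the RefSeq probes, a rule chosen after seeing the data, Parp9 was -1.39 in op/op minus WT, 2.92 in M1 minus M2 and -3.06 in WT minus M1, Gbp5 was -1.74 in WT minus M1 and Iigp1 3.13 in WT minus M2; here the probe itself differs. With a floor at the 10th percentile of each array's signals well above background Trim21 was 0.78 in op/op minus WT. Trim21 was well above background on no op/op array, so its op/op level there was set by the floor. The 11 genes that kept their kidney call in every setting other than leaving out an array were Ifit2, Mx1, Oas2, Oas3, Oasl2, Irf1, Gbp3, Igtp, Parp14, Rtp4 and Samhd1.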
